A study of Mus musculus with 6 samples.

Results

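C3H10T1/2 is a mouse mesenchymal line whose cells can become fat, bone, cartilage or skeletal muscle cells in culture. A list of 45 markers of the 3 lineages other than fat was followed in adipocytes made from it: 17 of bone, 9 of cartilage and 19 of skeletal muscle. The genes were chosen by name, with earlier results of these data known. Each was read by the probe set that the platform annotation gives to that gene alone, the highest-mean one where there were several. This found 42 of the 45 among 21996 named genes. Runx2 and Spp1 were not analysed here, and neither was Msx1, whose probe sets are annotated to more than 1 gene.

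RNA of each culture was hybridised to its own Mouse Gene ST array (Affymetrix, 1 colour), 6 in all. In 3 biological replicates an adenovirus carried, behind a U6 promoter, a short hairpin RNA against Zc3h10, the gene of a CCCH zinc finger protein, and in 3 it carried a scrambled hairpin. Both hairpin viruses were given at a multiplicity of infection of 50 with 72 h of exposure, and all cultures were at day 9 of differentiation. The hairpin comparison asks which transcripts differ when Zc3h10 is targeted, here whether markers of the other mesenchymal lineages moved in the fat cultures. These were whole cultures, so fewer cells of a type and less RNA per cell cannot be told apart.

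The deposited values are summarised intensities on a linear scale, and each change is the log2 mean of Zc3h10 shRNA arrays minus that of scramble arrays, ± its standard error in a limma fit over all 33079 probe sets. A gene is called where its Benjamini-Hochberg adjusted p is under 0.05. The array carries no detection calls, so 1096 olfactory receptor (Olfr) genes, which are mostly silent outside sensory tissue, gave the background. The limit, the level that the highest 2.5% of their group means exceeded, was 20.3 intensity units on the Zc3h10 shRNA arrays and 20.1 on the scramble arrays, and a level at or under it is described as background. Median intensities of the 6 arrays were 15.6 to 16.1, and array pairs correlated at r of 0.992 to 0.994 within a group and 0.985 to 0.988 between groups. Zc3h10 itself had 25.2, 30.2 and 22.9 intensity units on Zc3h10 shRNA arrays 1 to 3, against 25.9, 39.0 and 35.3 on scramble arrays 1 to 3. The groups overlapped, and the change of −0.34 ± 0.17 was not called (limma, adjusted p = 0.301; exact permutation test, two-sided, p = 0.2, where 0.1 is the smallest possible).

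Bone formation is driven by runt-domain, osterix and homeobox transcription factors, which switch on alkaline phosphatase and the proteins of the mineralising matrix. Cartilage identity rests on Sox9 with Sox5 and Sox6, which act on the genes of the cartilage matrix. Skeletal muscle is specified by the basic helix-loop-helix factors Myf5, Myod1, Myog and Myf6, which lead to the sarcomere genes. In a mesenchymal cell these programmes are alternatives to the fat programme led by Pparg and Cebpa.

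Of the 42 markers, 9 were called, 4 higher and 5 lower in Zc3h10 shRNA cells. That is 21.4% of the markers, beside 12.1% of all named genes (5.51% higher and 6.6% lower) and 9.79% of all probe sets. The higher ones were the bone genes Dmp1 and Dlx5 and the muscle genes Actn3 and Myh8. The lower ones were the bone genes Ibsp, Alpl and Bglap and the muscle genes Mb and Des. No cartilage marker was called by limma, while 1 of the 9 had an unadjusted p under 0.05 and an ordinary t statistic called none. For 14 of the 42 markers the 3 arrays of each group lay apart, beside 31.9% of named genes. Without scramble replicate 3 only 4 markers were called, Ibsp, Dmp1, Dlx5 and Mb, and without any other single array 6 to 7. The median change of the 42 was 0.01, as over all named genes (0.01).

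Many of these markers were at background. Both group means were over the Olfr limit for 17 of 42, 1 was over it only in Zc3h10 shRNA cells (Dmp1), 4 only in scramble cells (Bglap, Des, Sox6 and Myf5), and 20 in neither group. Of all named genes, 53.9% were over the limit in at least 1 group, against 52.4% of the markers. The adipocyte label was checked with 12 fat cell markers, and 11 of them were over the limit in both groups. All 11 fell, with adjusted p of 0.000658 to 0.00878. The transcription factor genes Pparg and Cebpa changed by −0.96 ± 0.12 and −1.71 ± 0.14. The lipid genes Plin1, Fabp4, Lpl, Lipe, Cidec and Cd36 changed by −1.17 to −0.66, and the glucose transporter Slc2a4 and the secreted Adipoq and Retn by −1.53, −0.84 and −1.25. The twelfth, Lep, was at background in both groups.

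**Figure D1:**
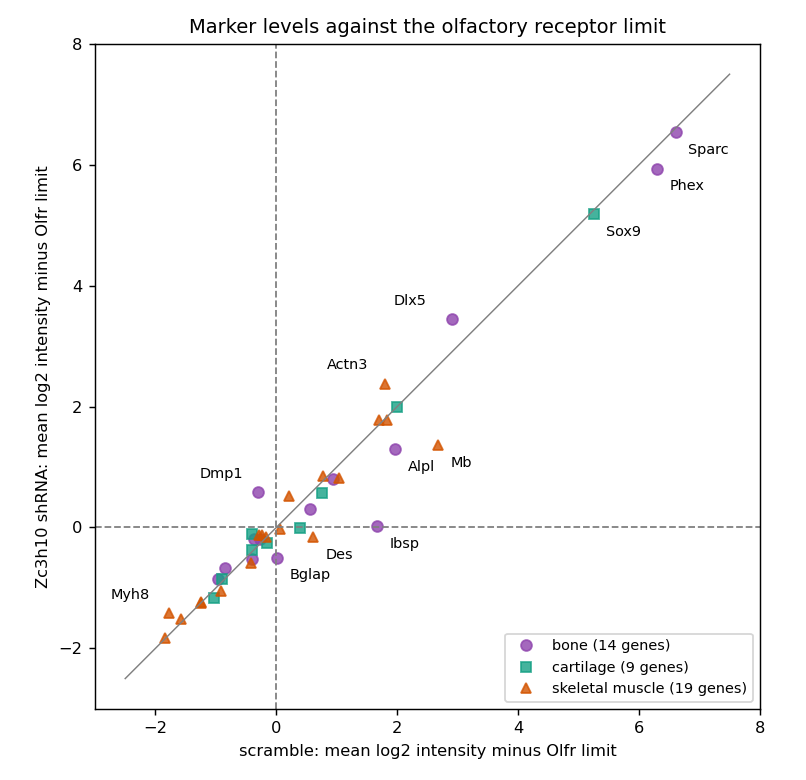
Mean log2 intensity of each of the 42 markers minus the Olfr limit of the same group, with scramble on the horizontal axis and Zc3h10 shRNA on the vertical axis, 1 point a gene, dashed lines at the limit and a solid line of equal values. The 20 markers at background lie in the lower left, while Sparc, Phex and Sox9 lie far above the limit in both groups; Ibsp, Mb, Alpl, Des and Bglap lie below the line, and Dmp1, Dlx5 and Actn3 above it.

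Bone matrix genes moved in opposite directions. Ibsp encodes bone sialoprotein, an acidic glycoprotein of mineralised tissue. It had 27.7, 15.7 and 20.3 intensity units on Zc3h10 shRNA arrays 1 to 3, against 62.9, 66.0 and 62.9 on scramble arrays 1 to 3. All 3 Zc3h10 shRNA values lay far below the scramble values, and only the first of them was clearly over the Olfr limit, with the third at it. Ibsp fell by 1.63 ± 0.19 on the log2 scale (limma adjusted p = 0.00171), and no fold is given because its level in Zc3h10 shRNA cells lay at the limit. Dmp1, the gene of dentin matrix protein 1, which osteocytes make, went the other way. It had 32.4, 27.9 and 31.5 on Zc3h10 shRNA arrays, against 17.8, 14.1 and 17.1 on scramble arrays, without overlap. All 3 scramble values were at background, so Dmp1 was at least 1.52-fold higher in Zc3h10 shRNA cells, and the fitted change was 0.91 ± 0.12 (adjusted p = 0.00285).

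Ibsp and Dmp1 are next to each other on chromosome 5, in the gene order of RefSeq assembly GRCm38.p6, within a run of genes for acidic matrix proteins (Dspp, Dmp1, Ibsp, Mepe, Spp1). On either side of the pair, Dspp was at 0.01 ± 0.10 (adjusted p = 0.966) and Mepe at 0.13 ± 0.14 (adjusted p = 0.667). Neither was called, and both were at background in both groups, so the only calls among the 4 genes of this run analysed here were the opposite ones of Ibsp and Dmp1.

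Bglap, the gene of osteocalcin, a calcium-binding protein of late osteoblasts, had 15.0, 15.1 and 13.0 intensity units in Zc3h10 shRNA cells, against 20.9, 19.3 and 20.5 in scramble cells. The groups did not overlap, but no Zc3h10 shRNA array and only 2 of 3 scramble arrays were over the Olfr limit. Its change was −0.49 ± 0.10 (adjusted p = 0.0162), and no fold is given because the scramble level lay at the limit. The call was lost without Zc3h10 shRNA replicate 3 (adjusted p = 0.0606), scramble replicate 1 (0.0550) or scramble replicate 3 (0.0604). An ordinary t statistic did not call Bglap either (adjusted p = 0.0513). Close paralogs, Bglap2 and Bglap3, lie beside Bglap and can share its probes. Its other neighbour, Pmf1, a kinetochore gene, was also lower (−0.57 ± 0.12, adjusted p = 0.0242), and the part of either in the Bglap value was not tested.

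The promoters of these 3 genes are shown because their transcripts moved in different directions although all belong to the mineralising matrix. Each run covers 250 bases before and 50 after a RefSeq transcript start in GRCm38.p6, 5′ to 3′ on the gene's strand. Capitals mark matches, on either strand, to the RUNX core (TGTGGT), a homeodomain core (TAATTA) and the TATA box (TATAAA), motifs that do not overlap in these windows.
Ibsp, chr5:104299037-104299336, plus strand: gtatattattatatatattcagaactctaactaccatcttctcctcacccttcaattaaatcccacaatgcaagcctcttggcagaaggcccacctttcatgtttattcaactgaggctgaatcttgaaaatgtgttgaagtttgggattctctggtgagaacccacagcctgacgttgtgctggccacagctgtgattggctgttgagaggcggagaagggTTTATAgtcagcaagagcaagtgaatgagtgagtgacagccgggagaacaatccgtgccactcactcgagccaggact
Bglap, chr3:88384417-88384716, minus strand: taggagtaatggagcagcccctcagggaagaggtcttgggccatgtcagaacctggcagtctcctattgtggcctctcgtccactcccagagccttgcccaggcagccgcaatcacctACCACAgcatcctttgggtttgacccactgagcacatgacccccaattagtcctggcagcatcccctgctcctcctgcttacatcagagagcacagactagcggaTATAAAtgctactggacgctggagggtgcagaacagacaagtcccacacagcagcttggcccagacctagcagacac
Dmp1, first start, chr5:104197325-104197624, plus strand: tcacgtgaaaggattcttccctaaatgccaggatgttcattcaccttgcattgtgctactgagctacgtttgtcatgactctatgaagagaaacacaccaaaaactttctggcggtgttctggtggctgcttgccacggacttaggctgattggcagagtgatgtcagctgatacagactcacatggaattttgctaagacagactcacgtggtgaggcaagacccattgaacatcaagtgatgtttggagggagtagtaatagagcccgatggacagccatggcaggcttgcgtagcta
Dmp1, second start, chr5:104202367-104202666, plus strand: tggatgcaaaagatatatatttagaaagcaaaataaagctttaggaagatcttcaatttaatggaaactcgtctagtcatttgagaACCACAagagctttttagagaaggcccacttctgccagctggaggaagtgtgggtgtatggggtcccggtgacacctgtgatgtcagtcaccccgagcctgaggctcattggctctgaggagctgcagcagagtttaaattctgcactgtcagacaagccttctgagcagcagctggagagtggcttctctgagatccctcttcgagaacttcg

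The Ibsp and Bglap windows held a match to the TATA box, with its first base at −28 in Ibsp and −27 in Bglap, counted from the start site. In Ibsp it was the reverse complement, TTTATA, and neither Dmp1 window held a match. Among the other called markers, both a lower and a higher one held a match, and a link between match and direction was not tested. The lower Des (1 start) and Mb (3 starts) held none. The lower Alpl held one at −192 of its second start only, and the higher Myh8 held one at −96. The Alpl and Myh8 matches were also TTTATA and lay further from the start than those of Ibsp and Bglap. A RUNX core stood at −132 in Bglap and at −164 of the second Dmp1 start, and none of the 4 windows held TAATTA. Over 32851 promoter windows of the same length, 13.6% held the TATA box, 16.8% the RUNX core and 5.29% the homeodomain core. Of the other called markers, Mb held a RUNX core at −57 of its first start and Myh8 the homeodomain core at −51. A match is a stretch of letters, not a measured binding site. Of the 9 called markers, 7 had a promoter in the table.

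Among genes that act on mineral and phosphate, Alpl was lower. It encodes tissue-nonspecific alkaline phosphatase, which breaks down pyrophosphate, an inhibitor of mineralisation. Alpl had 42.3, 49.3 and 59.8 intensity units in Zc3h10 shRNA cells, against 73.5, 84.2 and 78.3 in scramble cells, with all 6 arrays over the limit and no overlap. The change was −0.65 ± 0.14 (1.57-fold lower, adjusted p = 0.0208). It was no longer called without Zc3h10 shRNA replicate 2 (adjusted p = 0.0702), scramble replicate 2 (0.0834) or scramble replicate 3 (0.0652). Nor was Alpl called by an ordinary t statistic (adjusted p = 0.114). Phex, an endopeptidase of phosphate balance that is mutated in X-linked hypophosphatemia, had 1358, 1156 and 1224 in Zc3h10 shRNA cells, against 1660, 1473 and 1611 in scramble cells. The groups did not overlap, yet the change of −0.35 ± 0.10 was not called (adjusted p = 0.0741). Phex passed in 4 of 16 alternatives. Its adjusted p was 0.0266 without probe sets under the median, 0.00773 with the intensity trend and 0.0278 with an offset of 32. It was 0.0480 with averaged probe sets, where Phex, with 1 probe set, kept its values and only the fit and adjustment changed. Over all 16 the adjusted p was 0.00773 to 0.207. Sparc, the collagen-binding glycoprotein osteonectin, had 1863, 1861 and 1966 in Zc3h10 shRNA cells, against 1989, 1923 and 1993 in scramble cells. Those values overlapped, and the change of −0.05 ± 0.08 had a 95% interval of −0.24 to 0.14.

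Of the bone transcription factors, only Dlx5 was called. This homeobox factor acts in osteoblast differentiation. Dlx5 had 213, 217 and 234 intensity units in Zc3h10 shRNA cells, against 160.2, 139 and 153 in scramble cells, so every Zc3h10 shRNA value was above every scramble value. It rose by 0.55 ± 0.09 (1.47-fold, adjusted p = 0.00889). Dlx6, its neighbour on chromosome 6 and a partner in limb and skull development, was at background in both groups and at 0.00 ± 0.14 (adjusted p = 0.999). The runt-domain relatives were low and overlapping: Runx1 had 24.0, 19.5 and 33.7 in Zc3h10 shRNA cells, against 28.1, 31.3 and 29.4 in scramble cells (change −0.24 ± 0.18, adjusted p = 0.536). Runx3 had 32.5, 36.0 and 37.5 in Zc3h10 shRNA cells, against 37.7, 42.4 and 35.7 in scramble cells (change −0.13 ± 0.10, adjusted p = 0.564).

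The other 5 bone markers were at background in both groups. They were Sp7, the osterix gene, the homeobox genes Dlx3 and Msx2, the matrix phosphoglycoprotein gene Mepe and Sost, the gene of the Wnt inhibitor sclerostin. Their changes ran from −0.11 to 0.19, with adjusted p of 0.442 or more. At this signal a difference was not detectable for Sp7 (95% interval −0.09 to 0.46). Bone markers as a group thus had 2 higher, 3 lower and 9 not called of 14, with a median change of −0.08. That is 35.7% called, beside 12.1% of all named genes (5.51% higher and 6.6% lower).

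**Figure D2:**
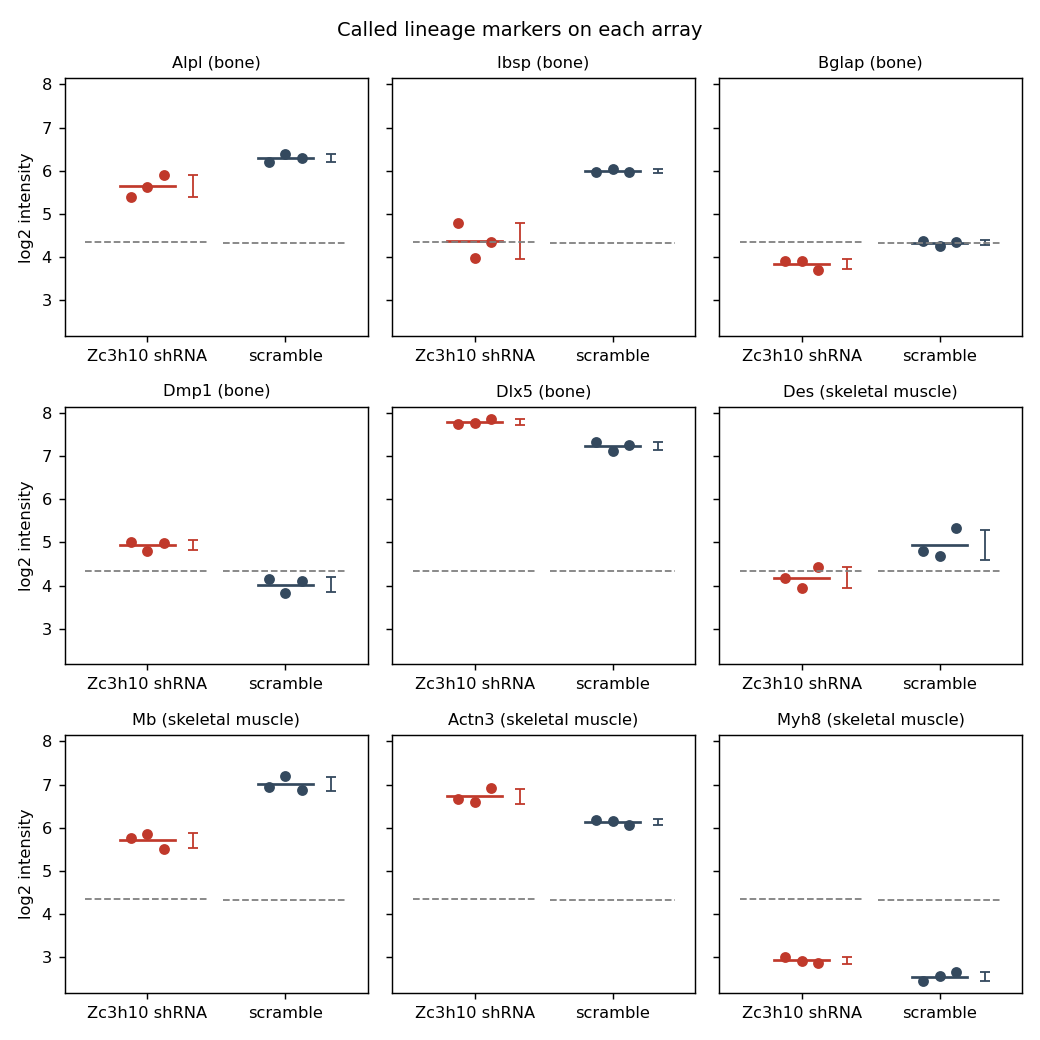
Log2 intensity of the 9 called markers on each array, Zc3h10 shRNA left and scramble right in each panel; points are arrays, horizontal bars group means, the capped bars 1 SD (n = 3) and dashed lines the Olfr limit of the group. The groups do not overlap in any panel, in Zc3h10 shRNA cells Ibsp lies around the limit and Bglap under it, with Bglap at the limit in scramble cells, Dmp1 is under it in scramble cells, and Myh8 is under it in both.

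None of the 9 cartilage markers was called by limma, beside 12.1% of all named genes. Sox9, the transcription factor that sets cartilage identity, had 743, 719 and 758 intensity units in Zc3h10 shRNA cells, against 808, 682 and 817 in scramble cells. These ranges overlapped, and the change was −0.05 ± 0.10 (adjusted p = 0.842, 95% interval −0.28 to 0.18). Its partner Sox5 had 27.9, 31.4 and 31.6 in Zc3h10 shRNA cells, against 34.8, 35.5 and 31.8 in scramble cells. The Sox5 groups did not overlap, but by a margin of under 1 unit, and its change of −0.17 ± 0.10 was not called (adjusted p = 0.383). Sox6, the other partner, had 22.7, 19.8 and 18.4 in Zc3h10 shRNA cells, against 24.3, 25.0 and 30.4 in scramble cells. All Sox6 values of Zc3h10 shRNA cells were lower, near the Olfr limit, with a change of −0.39 ± 0.12 (adjusted p = 0.102). Of the alternatives run, Sox6 passed only where probe sets under the median level were left out (adjusted p = 0.0454).

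Ihh, the gene of Indian hedgehog, which paces the growth plate, had 79.0, 96.1 and 70.8 intensity units in Zc3h10 shRNA cells, against 79.4, 83.2 and 77.9 in scramble cells, and its change was 0.02 ± 0.12 (adjusted p = 0.952). The Ihh groups overlapped. The other 5 cartilage markers were at background in both groups: Acan, the aggrecan gene, the matrix protein genes Comp, Matn3 and Cilp, and Pth1r, the receptor of parathyroid hormone and its related peptide. Their changes ran from −0.12 to 0.30, with adjusted p of 0.401 or more. The cartilage markers had a median change of −0.05.

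**Figure D3:**
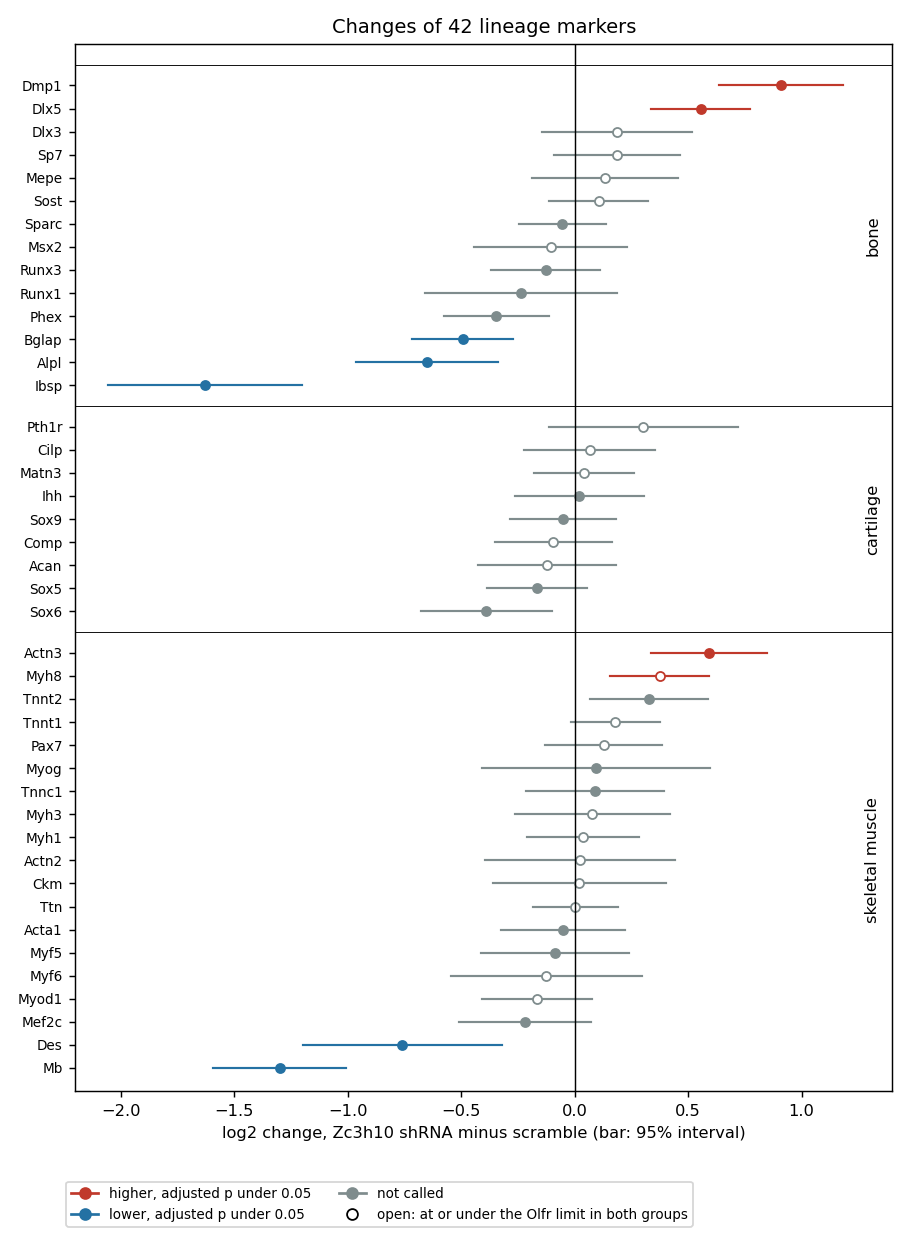
Log2 change (Zc3h10 shRNA minus scramble) of all 42 markers by lineage, with 95% intervals from the limma fit; red is higher and blue lower at an adjusted p under 0.05, grey not called, and open circles mark genes at or under the Olfr limit in both groups. Ibsp and Mb have the lowest changes and Dmp1 the highest, while all 9 cartilage markers are grey.

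Skeletal muscle markers gave 2 rises, 2 falls and 15 uncalled changes among 19 genes, with a median of 0.02. That is 21.1% called, beside 12.1% of all named genes, and the rise of Myh8 was at background in both groups. Of the factors that specify muscle, Myod1 and Myf6 were at background in both groups, as was Pax7, the factor of muscle stem cells. Myf5 had 16.8, 19.3 and 24.2 intensity units in Zc3h10 shRNA cells, against 22.6, 19.6 and 21.2 in scramble cells, around the limit and overlapping (change −0.09 ± 0.14, adjusted p = 0.797). Myog, the factor of terminal differentiation, had 29.2, 48.2 and 34.7 in Zc3h10 shRNA cells, against 26.8, 35.4 and 42.5 in scramble cells. The Myog arrays spread more than the groups differed (change 0.09 ± 0.22, adjusted p = 0.868). Mef2c, a cofactor of these proteins, had 37.2, 32.7 and 37.2 in Zc3h10 shRNA cells, against 48.6, 36.3 and 40.7 in scramble cells, and also overlapped (change −0.22 ± 0.13, adjusted p = 0.377). None of the muscle regulators was called by limma or by an ordinary t statistic, and none had an unadjusted p under 0.05.

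Mb was the muscle marker with the largest change. It encodes myoglobin, the oxygen-binding haem protein of muscle, which brown fat cells also make. Mb had 54.4, 57.6 and 45.8 intensity units in Zc3h10 shRNA cells, against 123, 147 and 118 in scramble cells, with all 6 arrays over the limit and no overlap. It fell by 1.30 ± 0.13 on the log2 scale (2.46-fold lower, adjusted p = 0.00103). Apol6, an apolipoprotein L gene that overlaps Mb in the RefSeq order, was also lower (−1.02 ± 0.11, adjusted p = 0.00146), and whether the 2 probe sets share a transcript was not tested. The gene on the other side of Mb, 1110038F14Rik, was at 0.09 ± 0.10 (adjusted p = 0.694).

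Des, the gene of the muscle intermediate filament desmin, had 18.0, 15.4 and 21.5 intensity units in Zc3h10 shRNA cells, against 28.0, 25.6 and 40.4 in scramble cells. The groups did not overlap, and only the third Zc3h10 shRNA array was over the limit. No fold is given for Des because its mean in Zc3h10 shRNA cells lay under the limit. Its fitted change was −0.76 ± 0.19 (adjusted p = 0.0437). The Des call was lost without any 1 of the 6 arrays, with adjusted p of 0.0516 without scramble replicate 2 up to 0.138 without Zc3h10 shRNA replicate 2. An offset of 32 and an ordinary t statistic also lost it. A further Des probe set is also annotated to Gm15179 and was not used.

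Among sarcomere genes 2 were called. Actn3, the actinin of fast muscle fibres, had 101, 96.5 and 122 intensity units in Zc3h10 shRNA cells, against 72.3, 71.6 and 66.8 in scramble cells, without overlap. Actn3 rose by 0.59 ± 0.11 (1.51-fold, adjusted p = 0.0133). It missed the threshold without scramble replicate 3 (adjusted p = 0.0547) and with an ordinary t statistic (adjusted p = 0.0685). Actn2, the actinin of heart and of all skeletal fibres, was at background in both groups (change 0.02 ± 0.18). Myh8, the perinatal myosin heavy chain, had 8.03, 7.57 and 7.25 in Zc3h10 shRNA cells, against 5.45, 5.93 and 6.27 in scramble cells. Its change of 0.37 ± 0.09 was called (adjusted p = 0.0458), yet all 6 values were far under the limit, so no fold is given, and the call was lost without any 1 array, with adjusted p of 0.0728 without scramble replicate 3 up to 0.130 without scramble replicate 1. Its neighbours in the myosin cluster of chromosome 11, whose probes can share sequence with it, were not called: Myh4 at 0.05 ± 0.21 and Myh13 at 0.06 ± 0.12.

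Among thin-filament genes over the limit, Tnnt2, cardiac troponin T, had 27.8, 32.7 and 27.2 intensity units in Zc3h10 shRNA cells, against 23.0, 25.5 and 21.4 in scramble cells. The groups did not overlap, but the change of 0.33 ± 0.11 was not called (adjusted p = 0.125). Tnnc1, the troponin C of slow and cardiac muscle, had 60.5, 75.6 and 73.2 in Zc3h10 shRNA cells, against 74.8, 57.7 and 64.7 in scramble cells (change 0.09 ± 0.13, adjusted p = 0.780). Acta1, skeletal α-actin, had 63.5, 74.8 and 70.2 in Zc3h10 shRNA cells, against 83.0, 65.9 and 68.1 in scramble cells (change −0.05 ± 0.12, adjusted p = 0.862). Both of these overlapped between the groups. The creatine kinase gene Ckm, the giant sarcomere gene Ttn, the slow troponin T gene Tnnt1 and the myosin genes Myh1 and Myh3 were at background in both groups. The 9 uncalled muscle markers at background, including Actn2, Myod1, Myf6 and Pax7, had changes of −0.17 to 0.18 and adjusted p of 0.281 or more.

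Further genes of the same lineages were counted from lists that exclude the markers. These lists were made with earlier results of these data known, so their counts only describe the listed genes. Of 21 measured bone genes, 7 were higher and none lower (33.3% called, beside 12.1% of named genes). The median change was 0.23, beside 0.01 over all named genes. Of the 21, 71.4% were over the Olfr limit in at least 1 group, beside 53.9% of named genes. Smpd3, a sphingomyelinase needed for bone mineralisation in mice, had 104 ± 16.6 intensity units on Zc3h10 shRNA arrays and 33.3 ± 3.80 on scramble arrays (SD, n = 3; change 1.63 ± 0.14, adjusted p = 0.000727). Bmp4, a bone morphogenetic protein, averaged 720.5 ± 83.9 intensity units on Zc3h10 shRNA arrays and 354 ± 17.9 on scramble arrays (SD, n = 3; change 1.02 ± 0.11, adjusted p = 0.00145). The mesenchymal cadherin gene Cdh11 was at 0.80 ± 0.11, Pdpn, a surface glycoprotein of early osteocytes, at 0.61 ± 0.08, and the matrix proteoglycan genes Omd and Ogn at 0.56 ± 0.10 and 0.38 ± 0.09. The sphingomyelin synthase gene Sgms2, at 0.53 ± 0.13, was the seventh. Collagen genes of bone, Col1a1 (0.26 ± 0.11, adjusted p = 0.204) and Col1a2 (0.32 ± 0.11, adjusted p = 0.133), and Postn, the periostin gene (−0.10 ± 0.10, adjusted p = 0.651), were not called.

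Of 23 further cartilage genes, 3 were lower and none higher, with a median of −0.07. That is 13.0% called, near the 12.1% of all named genes. Cnmd, the gene of the angiogenesis inhibitor chondromodulin, had 99.1, 37.2 and 47.5 intensity units in Zc3h10 shRNA cells, against 219, 195 and 231 in scramble cells. The Cnmd groups did not overlap (change −1.94 ± 0.32, 3.84-fold lower, adjusted p = 0.00722), although the Zc3h10 shRNA arrays differed among themselves by more than the scramble arrays. Epyc, the small proteoglycan epiphycan, had 169.8, 97.4 and 117 in Zc3h10 shRNA cells, against 318, 304 and 311 in scramble cells (change −1.32 ± 0.19, adjusted p = 0.00396). Prg4, the joint lubricant lubricin, was at −0.59 ± 0.14 (adjusted p = 0.0342). The type II collagen gene Col2a1, the main collagen of cartilage, was at −0.11 ± 0.16 and not called (adjusted p = 0.775), and neither was the minor fibril collagen gene Col11a1 (0.37 ± 0.11, adjusted p = 0.0922) or the matrilin gene Matn2 (−0.04 ± 0.09, adjusted p = 0.863). An ordinary t statistic called none of the 23.

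Of 38 further muscle genes, none was called by limma, beside 12.1% of all named genes. An ordinary t statistic also called none, while 2 had an unadjusted p under 0.05, and the median change was 0.04. The nearest to the threshold was Mef2d, a partner of the muscle regulators, at −0.35 ± 0.09 (adjusted p = 0.0535). With median scaling, cyclic loess, an offset, either filter on dim probe sets or the intensity trend, 1 of the 38 was called lower. Of the 38, 24 were at background in both groups. Mef2a (−0.02 ± 0.08, adjusted p = 0.912) and Eno3, the muscle enolase gene (−0.06 ± 0.10, adjusted p = 0.786), were well over the limit and not called.

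Markers of related cell types were read in the same way, beside calls for 12.1% of all named genes. Of 6 smooth muscle genes, 4 rose: Acta2, smooth muscle actin (0.80 ± 0.12), Tagln (1.01 ± 0.11), Myl9 (0.98 ± 0.10) and Smtn (0.43 ± 0.09), with adjusted p of 0.00126 to 0.0246, and an ordinary t statistic called 2 of them. Myh11, the myosin of mature smooth muscle, was at −0.08 ± 0.13 (adjusted p = 0.798) and Cnn1, at background, at 0.11 ± 0.11. Of 6 tendon genes, 3 rose: Tnmd, tenomodulin (0.73 ± 0.17), the homeobox gene Mkx (0.63 ± 0.15) and Tnc, tenascin C (0.59 ± 0.13), with adjusted p of 0.0232 to 0.0342. Among these 3, 1 was over the Olfr limit only in Zc3h10 shRNA cells and at background in scramble cells. None of these 3 tendon calls was left without scramble replicate 2, without scramble replicate 3 or with an ordinary t statistic, and 1 was left without scramble replicate 1, Zc3h10 shRNA replicate 2 or Zc3h10 shRNA replicate 3. The other 3 tendon genes had changes below 0 and were not called: Thbs4, at background, −0.38 ± 0.12 (adjusted p = 0.0896), Fmod −0.35 ± 0.13 (adjusted p = 0.145) and Scx, the tendon-specifying factor, −0.09 ± 0.11 (adjusted p = 0.705). For Thbs4 and Fmod the groups did not overlap. None of 6 cardiac, 6 macrophage and 6 endothelial genes was called by limma or an ordinary t statistic, with 1 cardiac gene at an unadjusted p under 0.05. Of these, 4 cardiac, 5 macrophage and 5 endothelial genes were at background in both groups. The part that a shift in the mix of cells has in the marker values was not tested.

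**Figure D4:**
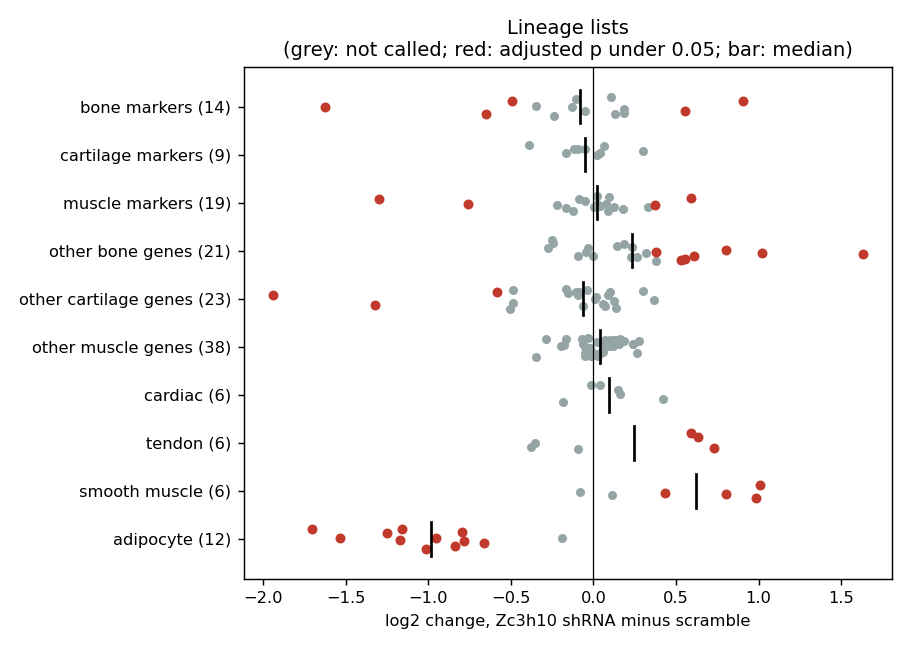
Log2 change (Zc3h10 shRNA minus scramble) of each measured gene, 1 row a list with its number of genes, red for an adjusted p under 0.05 and grey for the rest, with a black bar at the list's median; vertical scatter within a row has no meaning, and the macrophage and endothelial lists, without calls, are not drawn. Called bone and muscle markers lie on both sides of 0, the called further bone genes lie to the right, and 11 of 12 fat cell markers are called and lie to the left.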

How the data were processed

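Affymetrix Mouse Gene ST arrays of 6 cultures, 3 per group by their titles, were analysed. The authors deposited 1 intensity per probe set and array, already summarised over probes and linear, with no pooled columns; Affymetrix Expression Console and Partek 6.6 are named, without a role, in the submitters' processing notes. How background was corrected and probes were summarised and scaled was not given in the sources used here. Quartiles differed little between arrays, as after scaling.

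Log2 intensities, with no pseudocount, were fitted by lmFit and eBayes (limma 3.58.1, R 4.3.3; two-sided, over all 33079 probe sets, Benjamini-Hochberg adjustment over all of them). The code was tested on simulated data; the first simulation missed its own recovery criterion, and its noise model, effect sizes and criteria were then revised. Of the probe sets, 23043 had 1 gene symbol, 1740 several and 8296 none, and the RefSeq table of GRCm38.p6 served for names and gene order. Promoter sequences are RefSeq's, GRCm38.p6; 34 of 42 markers matched. Named were Zc3h10, all markers, and from each further list up to 6 called genes with the smallest p and the brightest 2. Every called gene of another cell type was also eligible. Genes named outside the rule (Sgms2, gene neighbours, Col1a1, Col1a2, Eno3, Col2a1, Scx and other uncalled ones) were chosen after their values were seen.

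Markers and lists were chosen with earlier results of these data known. Alternatives were other scalings, an offset of 32, filters on dim probe sets, an intensity trend, an ordinary t statistic, the replicate number as a block, leaving out each array, averaging probe sets and other Olfr percentiles. The number of arrays limits the precision. The limma p-values set each group difference against the spread between these cultures, with variances moderated over all probe sets.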

Additional observations from a re-analysis of the deposited data

How the results depend on the processing

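Ibsp, Dmp1, Dlx5 and Mb were called under all 16 alternatives run for each of them, and no marker reversed a call. The other 5 called markers lost the call under at least 1. The called markers have 1 probe set each, so averaging probe sets changed only their fit and adjustment, not their values. The 3 scalings moved the median of all genes by under 0.1 (log2) and removed the call of Myh8 (adjusted p of 0.0501 to 0.0607). Over all markers and alternatives, 31 of 656 values lost a call and 5 gained one. All 31 losses were of those 5 called markers. Most of the 656 values are of uncalled markers, which had no call to lose. Myh8 kept its call in 1 of the 8 alternatives that used all arrays. The ordinary t statistic left 2 markers higher and 2 lower, and 1972 probe sets, against 3238. Without each array in turn the counts were 2 to 3 higher, 2 to 4 lower and 1807 to 2578 probe sets. With the replicate number as a block, 3 markers were higher and 5 lower, with Myh8 lost (adjusted p = 0.108), and 2455 probe sets were called. Deviations of same-numbered arrays correlated at 0.0845, −0.00464 and 0.0425, and those of differently numbered arrays at −0.0925 to 0.0613. The numbers thus gave no clear sign of pairing, which 3 arrays per group cannot exclude. The block, or an offset of 32, left 1 of 3 tendon calls. Of the further bone genes, 5 to 6 were called higher without single arrays, 6 higher and 1 lower by the ordinary t statistic, and 10 higher and 1 lower with the intensity trend. With 95th or 99th percentiles of Olfr genes, 32 or 18 markers were over background in a group, against 22. An offset of 32 shrank the changes of dim genes, to −0.86 for Ibsp. The Zc3h10 change was −0.52 to −0.22 without single arrays and was not called under any alternative run. Low signal limits 20 markers at background: their changes cannot be read as presence or absence of a transcript.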
